A study of Homo sapiens with 18 samples.

Results

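The genes described here carry the TGF-beta signal in podocytes from secretion to feedback. They encode the ligands TGFB1, TGFB2 and TGFB3, the latent TGF-beta binding proteins LTBP1 and LTBP2, the receptors TGFBR1 and TGFBR2, the activin subunit INHBA, and the feedback regulators SMAD7 and SKIL. These 10 of the 58735 genes in the count table were taken by symbol, and all 10 passed the filter on low counts. The RNA came from PODO/TERT256, a line of human podocytes kept dividing by telomerase. Podocytes are the epithelial cells on the outer face of the kidney's glomerular filter. The cells grew on hemispheres whose surface was smooth or fractal, and on each surface were left as controls, given TNF-α with IL-6 (cytokines), or exposed to macrophages made from THP-1, a monocytic leukaemia line. That gave 6 groups of 3 libraries, 18 in all. Doses, times and the way macrophages met or were parted from the podocytes were not given in the sources used here, and all groups share 1 cell line.

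TGF-beta is secreted in a latent complex: the ligand stays bound to its own propeptide, and a latent binding protein tethers that complex to the extracellular matrix. Integrins, proteases or thrombospondin release it, the ligand binds the type II receptor TGFBR2, which recruits and activates the type I receptor TGFBR1, and this receptor phosphorylates SMAD2 and SMAD3. Among the genes that SMADs switch on are SMAD7 and SKIL, which then restrain the same signal, and in the glomerulus the pathway is best known for matrix accumulation and podocyte injury.

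Library totals ran from 11488204 to 21264180 counts. The labels do not say that the 3 libraries of a group were separate cultures, so the p-values rest on library-to-library variation whose source, culture or bench, is unknown. A chi-square value per degree of freedom, which is 1 for counting error alone, ran from 2.52 to 3.38 between controls of a group. Pairs with fractal THP-1 replicate 3 reached 65.1 and 63.8, and pairs with smooth cytokines replicate 2 reached 35.9 and 36.6. Of the remaining pairs, smooth cytokines replicates 1 and 3 gave 12.4, and no other exceeded 7.67. Fractal THP-1 replicate 3 had 0.847% of its counts in mitochondrial genes and smooth cytokines replicate 2 had 8.093%, against 3.856% to 4.625% in the other 16. The former also had the lowest total and the fewest genes with counts, 17934 against 21039 or more. Of the podocyte markers, LMX1B had no count in any group, while ACTN4 stood at 1229 CPM and SYNPO at 66.6 CPM in smooth controls. The sum of 22 monocyte and macrophage markers was 2.3 to 3.65 CPM in controls, 2.5 to 5.68 CPM with cytokines, 66.3 to 74.9 CPM in smooth THP-1 libraries and 28.7 to 35.4 CPM in fractal THP-1 libraries. All 12 tested markers of that list rose with THP-1 on both surfaces, and C1QB, MRC1 and MARCO had no count in either THP-1 group. The filter on low counts used the THP-1 libraries too, so a marker near 0 elsewhere could be tested only by being high there. ITGB2, for one, stood at 0.198 CPM in smooth controls and 22.2 CPM in smooth THP-1 libraries. The count of 12 is therefore no test of the list. CPM are counts divided by library size, scaled by TMM except in the marker sum. Fractal THP-1 replicate 3 and smooth cytokines replicate 2 are the libraries called apart below.

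The promoters below belong to TGFB2 and LTBP1, whose levels ranged most widely over the groups, and to SKIL, the only other member whose windows hold the cyclic AMP response element found in LTBP1. They are RefSeq bases upstream of the annotated start (GRCh38.p14, plus strand, 5′ to 3′), reaching up to it in TGFB2 and LTBP1 and ending 37 bases short of it in SKIL, where GENCODE already places an exon of SKIL, at chr1:218345086-218345335, chr2:32946703-32946952 and chr3:170357465-170357677. Capitals mark an E-box (CACGTG) in TGFB2 and a cyclic AMP response element (TGACGTCA) in the other two.
TGFB2: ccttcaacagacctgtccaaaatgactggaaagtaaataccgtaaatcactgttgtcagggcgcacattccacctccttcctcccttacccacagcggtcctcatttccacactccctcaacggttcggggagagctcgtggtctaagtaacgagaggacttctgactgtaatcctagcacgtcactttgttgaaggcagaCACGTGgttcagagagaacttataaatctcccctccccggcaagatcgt
LTBP1: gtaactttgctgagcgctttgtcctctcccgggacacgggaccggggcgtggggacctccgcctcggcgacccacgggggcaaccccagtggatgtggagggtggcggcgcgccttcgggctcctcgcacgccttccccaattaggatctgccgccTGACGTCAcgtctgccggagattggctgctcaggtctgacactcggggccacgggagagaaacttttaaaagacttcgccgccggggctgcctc
SKIL: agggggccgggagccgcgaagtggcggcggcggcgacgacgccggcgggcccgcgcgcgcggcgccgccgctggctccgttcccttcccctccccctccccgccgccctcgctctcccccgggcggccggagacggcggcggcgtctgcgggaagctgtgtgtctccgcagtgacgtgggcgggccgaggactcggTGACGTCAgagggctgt

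The motifs were searched on both strands in windows from 250 bases before to 50 after each start. The 10 members had 23 such windows, because several have more than 1 annotated start, and the comparison set was 35116 RefSeq windows. TGACGTCA was in 1.85% of all windows, and among the members in LTBP1, starting 94 bases before the start, and SKIL, starting 54 before it. CACGTG was in 7.26% of all windows, and in TGFB2 at 49 and TGFB3 at 20 bases before the start. The core AGAC that SMAD proteins can bind was in 84.0% of all windows and in 19 of the 23, over 9 members, TGFB1 being the exception. Its palindrome GTCTAGAC was in 0.202% of all windows and in 0 of the 23. An NF-kB core (GGANTTTCC, 1.64% of windows) and an AP-1 site (TGACTCA, 4.95%) were each found in TGFBR2 alone, and a STAT site (TTCCNGGAA, 1.15%) in 0. A match is only these letters in this window. Of the TGFB2 stretch, 161 bases lie in GENCODE exons of other genes.

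With cytokines, INHBA, SMAD7, SKIL and TGFBR2 rose on both surfaces while TGFB2 fell, and TGFBR1 rose on smooth and, by a call lost under 7 of 15 alternatives, on fractal. With THP-1 macrophages, TGFB2 and LTBP1 fell several-fold, TGFBR2 rose on both surfaces, and TGFBR1 fell on smooth and, by a call lost under 11 of 15 alternatives, on fractal. A call is an adjusted p below 0.05 (edgeR's quasi-likelihood test, Benjamini-Hochberg adjustment over the 16129 genes tested). On the smooth surface cytokines raised 5 of the 10 and lowered 1, where 13.2% of all tested genes were called higher, 12.4% lower and 25.7% either way. On the fractal surface cytokines raised 7 and lowered 1, against 13.0%, 12.9% and 25.8%. THP-1 raised 2 and lowered 4 on the smooth surface, against 17.3%, 17.7% and 35.1%. It raised 2 and lowered 3 on the fractal surface, where 25.0% of genes were called higher, 25.5% lower and 50.5% either way, so the 5 called stand at the background share. Median log2 fold changes of the 10 were 0.65 and 0.56 with cytokines and -0.14 and -0.08 with THP-1 (smooth, then fractal), beside medians of 0.01, 0.03, 0.02 and 0.04 over all tested genes. Cytokines and THP-1 on a surface were set against the same control libraries. The macrophage markers rose in every THP-1 library, and their part in the THP-1 results was not tested.

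**Figure D1:**
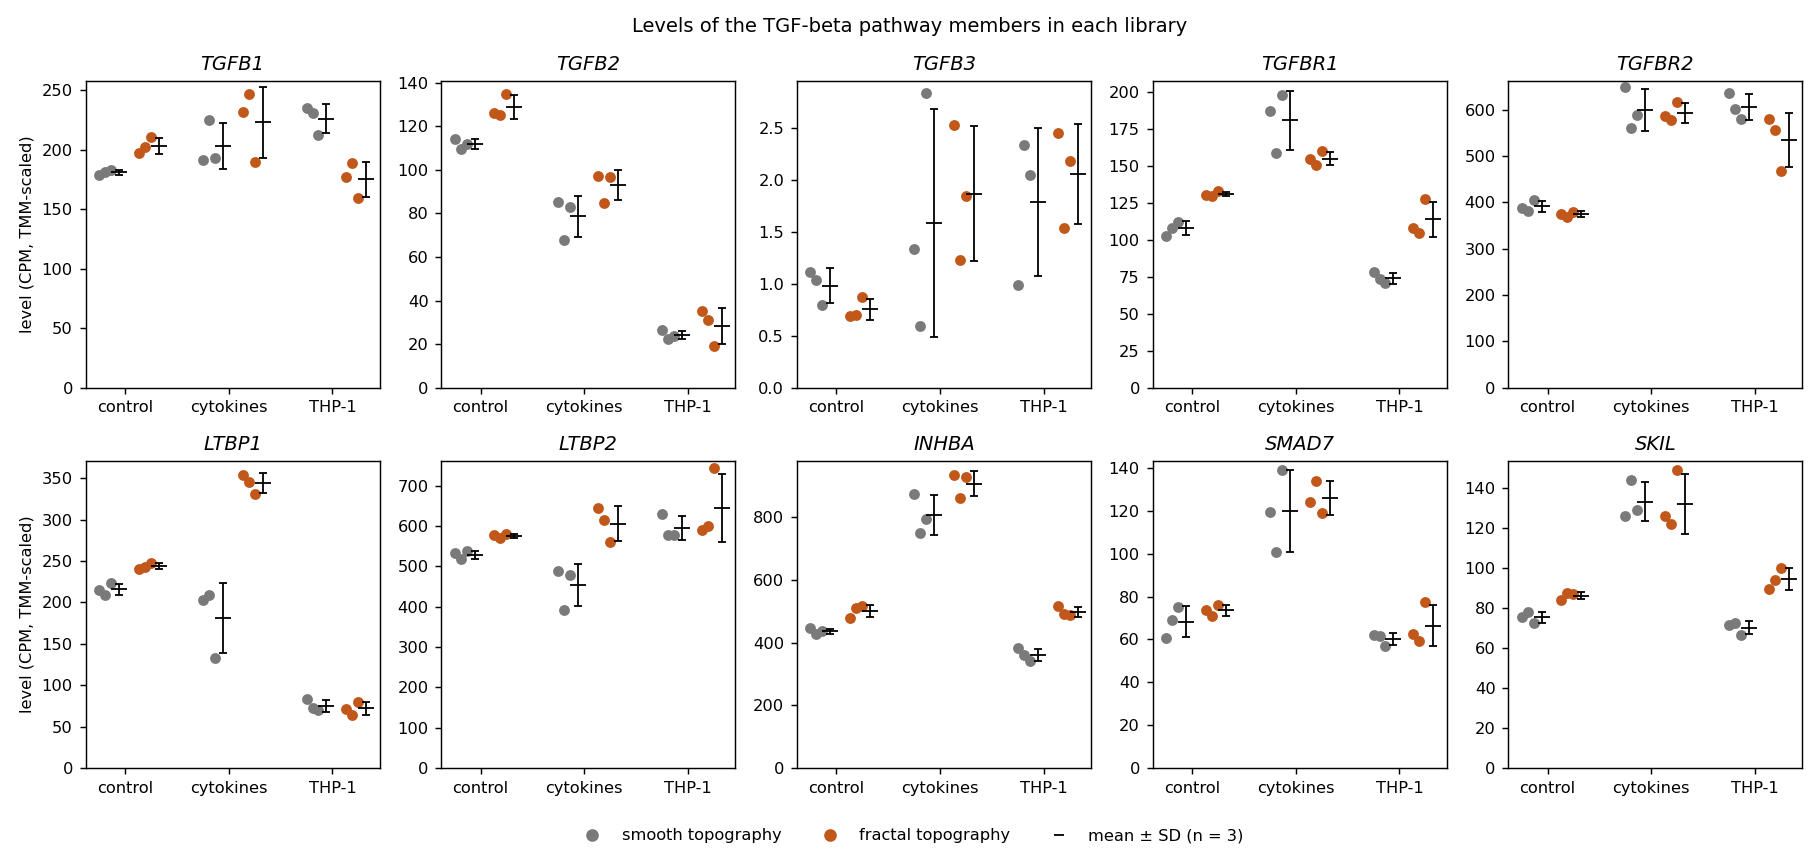
Level of each of the 10 genes (y axis, CPM, TMM-scaled; each panel has its own scale from 0) in the 18 libraries by treatment (x axis). Grey points are smooth and orange points fractal libraries, bars show mean ± SD (n = 3); TGFB2 and LTBP1 are lowest in all 6 THP-1 libraries, and INHBA is highest in all 6 cytokine libraries.

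TGFB1, the ligand most studied in kidney fibrosis, parted by surface with macrophages. It stood at 179, 181 and 183 CPM in smooth controls, 191, 225 and 193 with cytokines, and 235, 231 and 212 with THP-1. The smooth THP-1 libraries were all above the smooth controls, a log2 fold change of 0.32 ± 0.09 (SE, n = 3 per group; edgeR adjusted p = 0.00688). On the fractal surface it stood at 197, 202 and 210.4 CPM in controls, 232, 247 and 189.8 with cytokines, and 177, 189 and 159.7 with THP-1. There the THP-1 libraries were all below the controls, by -0.21 ± 0.09 on the log2 scale, without passing the test (edgeR adjusted p = 0.0521). That fall passed under 4 of 15 alternatives: limma-voom, no filter, the replicate number as a block, and without fractal THP-1 replicate 2. The responses to THP-1 on smooth and fractal differed, with an interaction of -0.53 ± 0.13 (edgeR adjusted p = 0.00543). With cytokines TGFB1 gave 0.17 (95% interval -0.03 to 0.36) on smooth and 0.13 (-0.06 to 0.33) on fractal, neither past the test. Between the THP-1 groups the monocyte and macrophage marker sum, like TGFB1, was higher on smooth, with a mean of 71 CPM against 32 CPM on fractal. Between fractal controls and fractal THP-1 libraries the sum rose from a mean of 2.78 to 32 CPM, while TGFB1 was lower with THP-1. The part of the marker genes in the result was not tested. TGFB1 shares 215 exon bases, 6.64% of its exon length, with HNRNPUL1 on the opposite strand, and libraries without strand cannot part reads there. HNRNPUL1 was lower on fractal than on smooth with THP-1 by a log2 value of -0.32 ± 0.08 (edgeR adjusted p = 0.0048), where TGFB1 had -0.37. It lay at -0.49 ± 0.08 for THP-1 on fractal (1.28e-05), at -0.09 ± 0.08 for THP-1 on smooth (0.431) and at -0.40 ± 0.11 in the interaction with THP-1 (0.016). Its part in the TGFB1 result was not tested.

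TGFB2, a ligand with the same receptors, fell in every treated group. Smooth controls had 114, 109.5 and 112 CPM and fractal controls 126, 125 and 135 CPM. With cytokines it stood at 85.4, 67.9 and 82.9 CPM on smooth and at 97, 84.9 and 96.7 CPM on fractal, below every control of the same surface. The log2 fold changes were -0.50 ± 0.13 (edgeR adjusted p = 0.00534) and -0.47 ± 0.13 (0.00891). With THP-1 it dropped to 26.4, 22.6 and 23.7 CPM on smooth and to 35.2, 30.9 and 19.3 CPM on fractal. These are falls of 4.61-fold (log2 -2.21 ± 0.14, edgeR adjusted p = 2.66e-11) and 4.48-fold (log2 -2.16 ± 0.14, 1.05e-11). No THP-1 library overlapped a control or a cytokine library. In bulk RNA, fewer cells of a type and less RNA per cell cannot be told apart. The order of its group means was fractal control, smooth control, fractal cytokines, smooth cytokines, fractal THP-1 and smooth THP-1; the first 2 did not overlap, and within each treatment the surfaces overlapped.

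TGFB3, the third ligand, had few reads. Its group means ran from 0.755 ± 0.1 CPM in fractal controls to 2.06 ± 0.48 CPM in fractal THP-1 libraries (SD, n = 3), on 10 to 52 counts a library. On the fractal surface the treated libraries were all above the controls, by 1.30 ± 0.48 with cytokines (edgeR adjusted p = 0.0491) and 1.44 ± 0.48 with THP-1 (0.0146) on the log2 scale. On the smooth surface the groups overlapped, at 0.69 ± 0.48 and 0.85 ± 0.47. The call with cytokines was lost under 9 of 15 alternatives, and the call with THP-1 without fractal THP-1 replicate 1 (edgeR adjusted p = 0.0515).

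Set per kilobase of exon, which lets genes be compared, TGFB1 was a larger share of the ligand level in every treated library than in any control. TGFB1 made up 71.8 ± 0.58% of the summed ligand level in smooth controls and 71.4 ± 0.35% in fractal controls (SD, n = 3). Its share was 80 ± 3.4% and 78.7 ± 3.3% with cytokines, and 93.2 ± 0.37% and 90.2 ± 2% with THP-1. TGFB3 never exceeded 0.833% of the sum in a library. The ratio of TGFB1 to TGFB2 was 2.5, 2.63 and 2.6 in smooth controls and 14.1, 16.3 and 14.3 in smooth THP-1 libraries. On the fractal surface it was 2.49, 2.56 and 2.48 in controls and 7.98, 9.72 and 13.2 with THP-1, the highest value being that of replicate 3. The summed level itself was 77.8 ± 0.47 CPM per kb in smooth controls and 74.9 ± 3.9 in smooth THP-1 libraries, which overlap. On fractal it was 87.8 ± 3.1 in controls and 60 ± 5.8 with THP-1, without overlap.

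**Figure D2:**
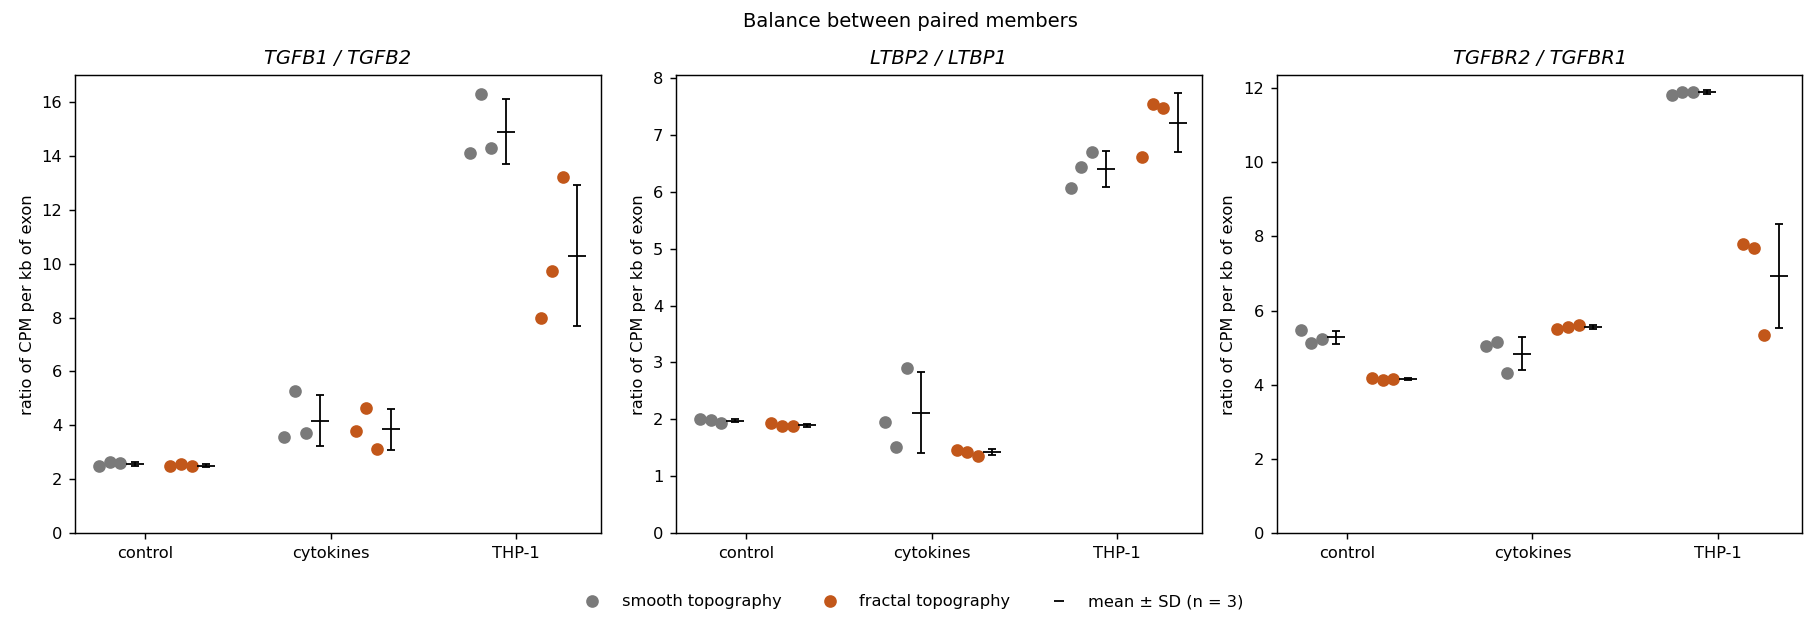
Ratios between paired members (y axis, ratio of CPM per kb of exon, linear scale from 0) in each library by treatment (x axis), with mean ± SD (n = 3; grey smooth, orange fractal). TGFB1 to TGFB2 and LTBP2 to LTBP1 are highest in the THP-1 libraries on both surfaces, and TGFBR2 to TGFBR1 is highest in smooth THP-1 libraries, at 11.8 to 11.9.

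LTBP1, which ties latent TGF-beta to the matrix, fell with macrophages on both surfaces and parted by surface with cytokines. It stood at 215, 209.5 and 223 CPM in smooth controls and 241, 243 and 248 CPM in fractal controls. With THP-1 it was 83.6, 72.5 and 69.5 CPM on smooth and 71.9, 64.1 and 80.2 CPM on fractal, below every control. The falls were 2.87-fold (log2 -1.52 ± 0.12, edgeR adjusted p = 1.04e-09) and 3.39-fold (log2 -1.76 ± 0.12, 3.44e-11). With cytokines it was 203, 209 and 133 CPM on smooth and 354, 346 and 331 CPM on fractal. Every fractal cytokine library thus stood above every other library of the study, and the smooth ones stood below their controls. The log2 change was 0.49 ± 0.12 on fractal (edgeR adjusted p = 0.00282) and -0.25 ± 0.12 on smooth (0.128). The interaction of 0.75 ± 0.17 passed the test (edgeR adjusted p = 0.0127). Smooth cytokines replicate 3 was the lowest of its group, and without it the interaction was 0.55, still past the test.

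LTBP2 sits in the same matrix fibrils as LTBP1 but is not thought to bind latent TGF-beta itself, and no treatment effect on it passed the test. It stood at 532, 517 and 537 CPM in smooth controls, 489, 393 and 478 with cytokines, and 629.6, 578 and 578 with THP-1. On fractal it stood at 577, 570.4 and 579 CPM in controls, 644, 615 and 560 with cytokines, and 589.7, 601 and 743 with THP-1. Its 4 treatment effects had log2 changes from -0.22 (95% interval -0.42 to -0.02) to 0.17 (-0.03 to 0.37). On smooth every cytokine library was below every control, and that effect passed under 3 of 15 alternatives. The effect of THP-1 passed under 2 of 15 on smooth and 1 of 15 on fractal, that of cytokines on fractal under 0. Per kilobase the ratio of LTBP2 to LTBP1 was 1.98 ± 0.029 in smooth and 1.9 ± 0.027 in fractal controls (SD, n = 3). It was 6.4 ± 0.31 and 7.21 ± 0.52 with THP-1, and 2.12 ± 0.71 and 1.42 ± 0.052 with cytokines.

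TGFBR2, the receptor that first binds the ligand, rose in all 4 treated groups. Smooth controls had 388, 382 and 405 CPM and fractal controls 375, 369 and 380.2 CPM. The treated groups had 648, 561 and 588 CPM (smooth cytokines), 586, 577 and 617 (fractal cytokines), 636, 602 and 579.7 (smooth THP-1) and 580.2, 556 and 468 (fractal THP-1). Every treated library was above every control. The log2 changes were 0.61 ± 0.08 and 0.66 ± 0.08 with cytokines and 0.63 ± 0.08 and 0.51 ± 0.08 with THP-1, with edgeR adjusted p from 7.84e-06 to 6.78e-07. Neither interaction passed, at 0.05 (95% interval -0.20 to 0.30) with cytokines and -0.12 (-0.36 to 0.13) with THP-1.

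TGFBR1, the kinase that phosphorylates SMAD2 and SMAD3, went up with cytokines and down with macrophages. It stood at 103, 108 and 112 CPM in smooth controls, 187, 159 and 198 with cytokines, and 78.2, 73.5 and 70.7 with THP-1. These smooth groups did not overlap, at 0.75 ± 0.09 (edgeR adjusted p = 2.36e-07) and -0.54 ± 0.09 (2.07e-05) on the log2 scale. On fractal it stood at 130.4, 129.8 and 133 CPM in controls, 155, 151 and 160.2 with cytokines, and 108, 105 and 128 with THP-1. The fractal changes were 0.25 ± 0.08 (edgeR adjusted p = 0.0332) and -0.21 ± 0.09 (0.0477). They were lost under 7 and 11 of 15 alternatives. The interaction with cytokines was -0.50 ± 0.12 (edgeR adjusted p = 0.0191). It was lost without smooth control replicate 1 (0.0724), smooth control replicate 2 (0.0537) or fractal control replicate 3 (0.0586), at log2 values of -0.47 to -0.50. That with THP-1 was 0.34 ± 0.12 and missed the threshold (0.0671). The ratio of TGFBR2 to TGFBR1 per kilobase was 5.28 ± 0.17 in smooth controls, 4.16 ± 0.022 in fractal controls and 11.9 ± 0.055 in smooth THP-1 libraries (SD, n = 3). Fractal THP-1 libraries had 7.8, 7.68 and 5.33, the last being replicate 3.

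INHBA encodes the beta A subunit, which pairs with itself to make activin A, a relative of TGF-beta that signals through the same SMADs. Cytokines raised it on both surfaces, from 446, 429 and 436 CPM to 876, 750.2 and 796 CPM on smooth and from 479, 511 and 516 to 936, 861 and 928 on fractal. All cytokine libraries were above all others, by 0.89 ± 0.07 (edgeR adjusted p = 1.47e-09) and 0.86 ± 0.07 (3.57e-09) on the log2 scale. With THP-1 it stood at 382, 359.6 and 341 CPM on smooth, below every smooth control (-0.28 ± 0.07, edgeR adjusted p = 0.00505). On fractal it stood at 517, 492 and 488 CPM and overlapped its controls (-0.01, 95% interval -0.17 to 0.15). The interaction with THP-1 of 0.27 ± 0.10 did not pass (edgeR adjusted p = 0.0985).

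SMAD7, which blocks the type I receptor, rose with cytokines. It stood at 60.8, 68.9 and 75.3 CPM in smooth controls and 119.5, 101 and 139 with cytokines, and at 73.8, 70.8 and 76 CPM in fractal controls and 124, 134 and 119 with cytokines. The groups did not overlap on either surface, at 0.81 ± 0.11 (edgeR adjusted p = 2.28e-06) and 0.77 ± 0.11 (4.83e-06) on the log2 scale. With THP-1 it stood at 62.2, 61.7 and 56.8 CPM on smooth and 62.3, 59.4 and 77.3 CPM on fractal, overlapping the controls. The highest of these was fractal THP-1 replicate 3. Without it the fractal change went from -0.15 to -0.28 and passed (edgeR adjusted p = 0.0151).

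SKIL encodes SnoN, a repressor that sits on SMAD complexes. It rose with cytokines from 75.4, 77.7 and 72.6 CPM to 126, 144 and 129 CPM on smooth (0.82 ± 0.08, edgeR adjusted p = 3.60e-08). On fractal it rose from 83.9, 87.5 and 86.8 CPM to 126, 122 and 149 CPM (0.62 ± 0.08, 2.67e-06). With THP-1 it stood at 71.5, 72.5 and 66.3 CPM on smooth and at 89.2, 94.1 and 100.1 CPM on fractal, on opposite sides of the respective controls. Neither change passed, at -0.10 (95% interval -0.28 to 0.08) and 0.13 (-0.05 to 0.31). SKIL and SMAD7 thus rose with cytokines without passing the test in either direction with THP-1.

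**Figure D3:**
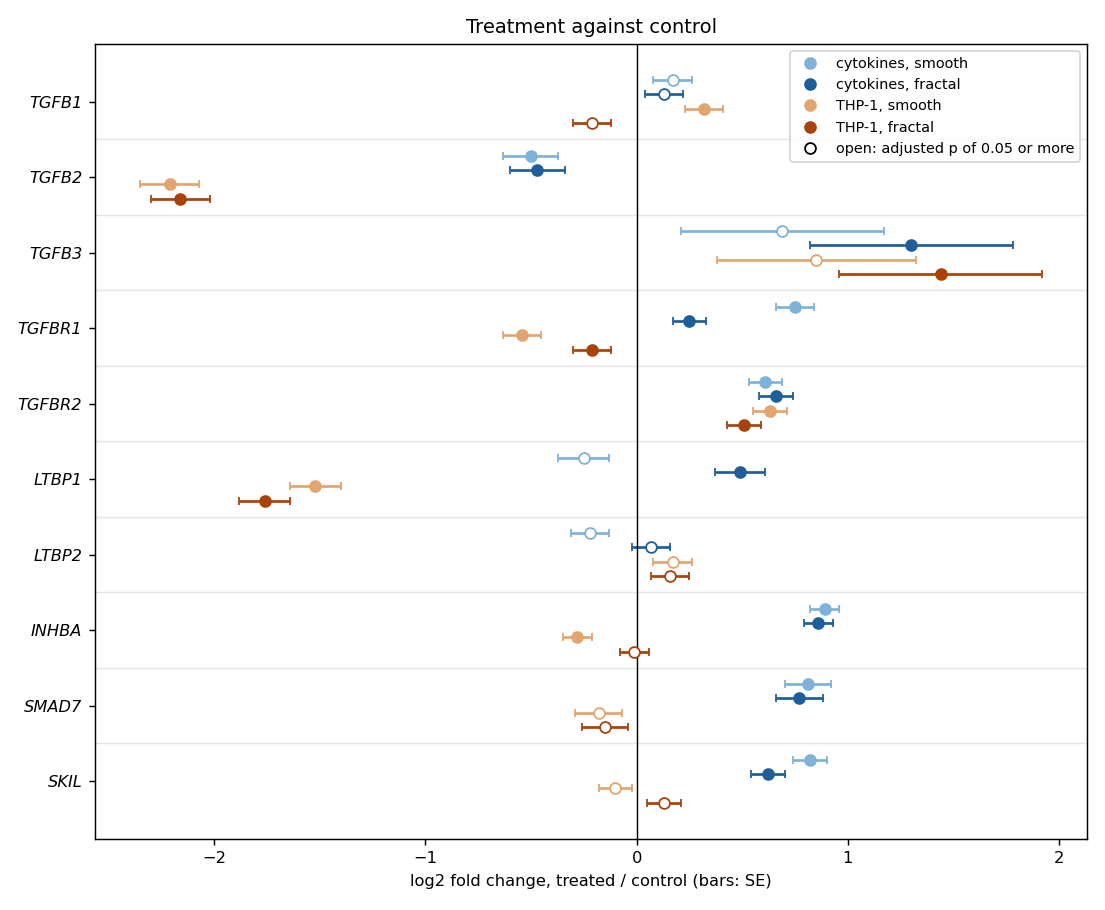
Log2 fold change of each gene (y axis) against the control of the same surface (x axis, linear log2 scale; bars are SE from edgeR), for cytokines (blue) and THP-1 (orange) on smooth (pale) and fractal (dark). Filled points passed the adjusted threshold of 0.05; TGFB2 lies left of 0 in all 4 contrasts and TGFBR2 right of 0 in all 4.

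Between untreated cells on the fractal and the smooth surface, most of these genes stood apart by small amounts that did not pass the test. Of the 10, edgeR, DESeq2 and limma-voom each called 0 between these controls, where 1.77% of all tested genes were called, 0.651% higher and 1.12% lower on fractal. At an unadjusted p under 0.05, 3 passed in edgeR's test, TGFBR1, INHBA and SKIL. The share of all tested genes at that unadjusted threshold was not counted, so these 3 have no background beside them. All fractal libraries stood above all smooth ones for 7 genes, TGFB1, TGFB2, TGFBR1, LTBP1, LTBP2, INHBA and SKIL, a pattern that 15.2% of tested genes showed. TGFBR2 was below, at 375 ± 5.5 against 392 ± 12 CPM (SD, n = 3), so that 8 of the 10 did not overlap, as against 30.3% of tested genes. TGFBR1 had the largest difference of the 7, 131 ± 1.5 against 108 ± 4.6 CPM (0.28 ± 0.09, edgeR adjusted p = 0.108). The count depended on which libraries set the spread. Fitted to the 6 control libraries alone, edgeR called these 7 genes and 2755 genes in all. Without fractal THP-1 replicate 3 and smooth cytokines replicate 2 it called 3, TGFB2 (edgeR adjusted p = 0.047), TGFBR1 (9.95e-04) and INHBA (0.0131), and 1188 genes in all.

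With cytokines the surfaces differed in the binding proteins. LTBP1 was 1.9-fold higher on fractal (0.92 ± 0.12, edgeR adjusted p = 1.28e-05) and LTBP2 higher by 0.42 ± 0.09 on the log2 scale (0.00482), and neither group of libraries overlapped. These 2 were the members called, against 1.72% of tested genes higher, 2.74% lower and 4.46% either way. TGFB2, TGFB1 and INHBA lay at 0.24, 0.14 and 0.17 without passing, and their libraries overlapped. TGFBR1 was lower on fractal, at -0.22 ± 0.08, also with overlap and without passing (edgeR adjusted p = 0.178). It lay at -0.31 and passed without smooth cytokines replicate 2 (edgeR adjusted p = 0.0277) and without both libraries that stand apart (4.13e-04). Under each of these fits 3 members were called. Over all genes these fits called 740 and 1561, against 719 in the main fit. SKIL lay at -0.00 (95% interval -0.18 to 0.17).

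With macrophages present, TGFBR1, INHBA and SKIL were higher on fractal and TGFB1 was lower. The log2 differences were 0.62 ± 0.09 for TGFBR1 (edgeR adjusted p = 8.75e-06), 0.47 ± 0.07 for INHBA (4.88e-05) and 0.43 ± 0.08 for SKIL (5.27e-04). TGFB1 was 1.29-fold lower (-0.37 ± 0.09, edgeR adjusted p = 0.00457). These 3 higher and 1 lower compare with 8.25% of tested genes higher, 11.7% lower and 20.0% either way. TGFB2 lay at 0.25 ± 0.14 (edgeR adjusted p = 0.249), with fractal replicate 3 below every smooth library. Without that replicate it lay at 0.45 and passed (4.37e-04). The marker sum named above was also lower on fractal in these groups, and its part in these differences was not tested.

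The interactions ask whether a treatment acted differently on the fractal surface. With cytokines, LTBP1 was called higher and TGFBR1 lower, 2 of the 10, where 1.28% of tested genes were called higher, 1.43% lower and 2.70% either way. With THP-1, TGFB1 alone was called, lower, where 5.35% were called higher, 7.88% lower and 13.2% either way. That count was 3 with DESeq2, with upper-quartile scaling, with the 4 groups compared fitted alone, or without the 2 libraries that stand apart, TGFBR1 and INHBA joining TGFB1 under each.

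**Figure D4:**
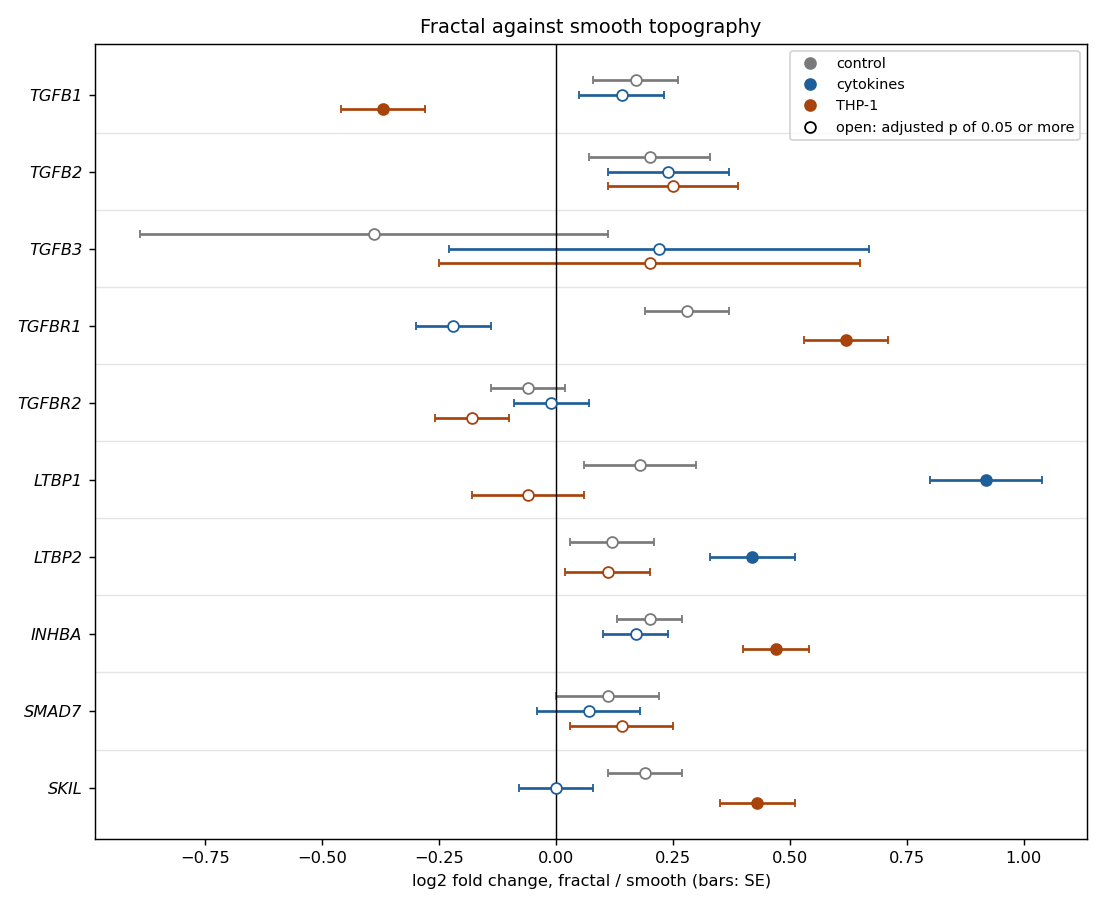
Log2 difference between the fractal and the smooth surface for each gene (x axis, linear log2 scale; bars are SE from edgeR) among controls (grey), with cytokines (blue) and with THP-1 (orange). Filled points passed the adjusted threshold of 0.05: LTBP1 and LTBP2 with cytokines, and TGFB1, TGFBR1, INHBA and SKIL with THP-1.

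Beside the counts of related genes that follow, the share of all tested genes called either way was 25.7% and 25.8% with cytokines and 35.1% and 50.5% with THP-1 (smooth, then fractal). Of 15 tested genes that store and release latent ligand, cytokines raised 7 and lowered 3 on smooth and raised 7 and lowered 2 on fractal. THP-1 raised 7 and lowered 3, and raised 9 and lowered 4. TGM2, a transglutaminase that crosslinks matrix and latent complexes, rose with THP-1 from 675 ± 6 to 3077 ± 76 CPM on smooth (2.19 ± 0.09, edgeR adjusted p = 3.47e-15) and from 635 ± 8.1 to 3145 ± 91 CPM on fractal (2.31 ± 0.09, 2.60e-16). ITGB8, a subunit of an integrin that activates TGF-beta, rose from 107 ± 6.4 to 329 ± 17 CPM on smooth and from 102 ± 5.1 to 339 ± 74 CPM on fractal. Its partner ITGAV fell from 1278 ± 11 to 775 ± 61 CPM and from 1250 ± 18 to 696 ± 22 CPM. LTBP3, a relative of LTBP1 that does bind latent ligand, rose with cytokines from 247 ± 2.2 to 557 ± 86 CPM on smooth and from 249.5 ± 9.7 to 694 ± 95 CPM on fractal (edgeR adjusted p = 2.31e-07 and 1.03e-08). It also rose with THP-1, to 469 ± 6.5 and 697 ± 161 CPM, while LTBP1 fell. THBS1, the activator thrombospondin 1, was lower on fractal than on smooth with THP-1, at 235 ± 6.7 against 520.4 ± 37 CPM (edgeR adjusted p = 3.91e-05). FURIN, which cuts the propeptide, was higher on fractal among controls, at 270.1 ± 4.9 against 204 ± 9.4 CPM (0.00624).

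Of 16 tested receptors, SMADs and co-receptors outside the 10, 6 were called with cytokines on smooth, 5 with cytokines on fractal and 7 with THP-1 on smooth, all higher. With THP-1 on fractal 6 rose and 2 fell, about the share over all tested genes there (50.5%). SMAD3, the transcription factor that TGFBR1 phosphorylates, rose with cytokines on smooth from 175 ± 1.6 to 277 ± 17 CPM (0.66 ± 0.07, edgeR adjusted p = 1.70e-07). On fractal it stood at 172 ± 1.5 CPM with cytokines and 196 ± 1.9 CPM in controls. Its interactions were -0.85 ± 0.10 with cytokines (edgeR adjusted p = 1.19e-05) and -0.74 ± 0.10 with THP-1 (1.87e-05). ENG, a co-receptor, rose with THP-1 on smooth, from 42.4 ± 1.9 to 56.2 ± 0.27 CPM, and fell on fractal, from 49.6 ± 1.4 to 32.2 ± 6.4 CPM (interaction -1.02 ± 0.15, edgeR adjusted p = 4.16e-05).

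Of 13 tested inhibitors and feedback genes other than SMAD7 and SKIL, cytokines raised 5 and lowered 2 on smooth and raised 8 and lowered 2 on fractal. THP-1 raised 4 and lowered 1, and raised 3 and lowered 1, against 35.1% and 50.5% of all tested genes called either way. Without the 2 libraries that stand apart, THP-1 on fractal raised 5 and lowered 1 of the 14 genes then tested. Over all genes that fit called 8806 there, against 8149 with all 18 libraries. PMEPA1, a target gene that keeps SMADs from the receptor, rose from 96 ± 1.2 to 269 ± 20 CPM on smooth (1.49 ± 0.08, edgeR adjusted p = 1.33e-13) and from 117 ± 1.5 to 207 ± 2.6 CPM on fractal (0.82 ± 0.07, 7.17e-09). That response differed between surfaces (interaction -0.66 ± 0.11, edgeR adjusted p = 3.25e-04). TGIF2, a SMAD corepressor, rose in all 4 treated groups, by 1.06 and 1.23 with cytokines and 1.03 and 1.12 with THP-1 on the log2 scale. SMURF2, a ubiquitin ligase that removes receptors together with SMAD7, fell in all 4, by 0.96 and 0.61 with cytokines and by 0.48 and 0.44 with THP-1. VASN, which traps TGF-beta, was higher on fractal among controls, at 45.3 ± 2.1 against 29.3 ± 0.82 CPM (edgeR adjusted p = 0.00139).

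Of 8 tested genes on the activin side, cytokines lowered 2 on smooth and raised 1 on fractal. THP-1 raised 1 and lowered 3 on smooth and raised 3 and lowered 3 on fractal, against 35.1% and 50.5% of all tested genes called either way. Without the 2 libraries that stand apart, cytokines raised 1 and lowered 2 on smooth and raised 2 on fractal, and THP-1 on fractal raised 1 and lowered 3. Over all genes that fit called 5664, 5914 and 8806 in these contrasts, against 4144, 4167 and 8149 with all 18 libraries. FST, which neutralises activin, fell with cytokines on smooth from 6.45 ± 0.62 to 3.92 ± 0.15 CPM (edgeR adjusted p = 0.00446). FSTL3, a relative of FST, fell with THP-1 from 302 ± 7.5 to 189 ± 6.6 CPM on smooth and from 355 ± 15 to 221 ± 81 CPM on fractal (0.00422 and 0.00229), the wide SD coming from fractal replicate 3, whose value was the highest of the 3. INHBE, another activin subunit, was lower on fractal than on smooth among controls, at 2.2 ± 0.61 against 5.89 ± 0.95 CPM (0.0208).

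Genes that TGF-beta is known to induce mostly fell with macrophages. Of 25 tested target genes, THP-1 lowered 16 and raised 4 on smooth and lowered 15 and raised 2 on fractal, against 17.7% of all tested genes lower and 17.3% higher on smooth and 25.5% and 25.0% on fractal. The median log2 changes of the list were -1.09 and -1.07 beside 0.02 and 0.04 over all genes. TGFBI, a matrix protein named for its induction by TGF-beta, fell from 1180 ± 28 to 247 ± 4.5 CPM and from 1363 ± 13 to 269 ± 17 CPM. POSTN, the matrix protein periostin, fell from 1002 ± 10 to 43 ± 5.8 CPM and from 990.2 ± 16 to 72.1 ± 13 CPM. FN1, fibronectin, went the other way, from 100856 ± 2014 to 125740 ± 12576 CPM and from 83073 ± 948 to 166868 ± 24016 CPM (edgeR adjusted p = 0.0328 and 8.26e-08). PLAUR, the urokinase receptor, also rose, from 72.3 ± 0.7 to 156 ± 3.5 CPM and from 72 ± 1.6 to 114 ± 23 CPM. POSTN fell less far on fractal (interaction 0.77 ± 0.16, edgeR adjusted p = 0.00193). The sum of 8 mesangial markers, of which 4 were tested, was 173 to 189.7 CPM in smooth controls and 98.8 to 103 CPM in smooth THP-1 libraries, and 237 to 242 against 84.8 to 92 CPM on fractal. Most of that sum was a single gene, MCAM, with means of 164 and 83 CPM on smooth and 212 and 72.4 CPM on fractal. ITGA8 and GATA3 of that list had no count in any group, and the part of these markers in the falls was not tested.

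With cytokines 4 of the 25 target genes were raised and 7 lowered on smooth, against 13.2% and 12.4% of all tested genes. On fractal 10 were raised and 5 lowered, against 13.0% and 12.9%. Without the 2 libraries that stand apart 9 were raised and 9 lowered on smooth and 13 and 6 on fractal. Over all genes that fit also called more, 5664 against 4144 on smooth and 5914 against 4167 on fractal. JUNB, an early response gene, rose on both surfaces, from 40.8 ± 1.1 to 83 ± 9.9 CPM and from 47.4 ± 0.36 to 97.8 ± 17 CPM. The 4 interactions called were all higher on fractal, where 1.28% of all tested genes were called higher, among them BGN (1.81 ± 0.27, edgeR adjusted p = 1.25e-04), TAGLN (1.40 ± 0.22, 8.91e-04) and TGFBI (0.52 ± 0.10, 0.00305). The log2 changes with cytokines on smooth and fractal were -0.97 and 0.84 for BGN, -1.33 and 0.07 for TAGLN, and -0.11 and 0.41 for TGFBI. TAGLN on fractal (edgeR adjusted p = 0.789) and TGFBI on smooth (0.303) did not pass. Between the surfaces with cytokines, 7 target genes were called, all higher on fractal, against 1.72% of all tested genes. TGFBI stood at 1817 ± 68 against 1095 ± 67 CPM, beside LTBP1 at 344 ± 12 against 181 ± 42 CPM. Among controls only CCN2, a matricellular growth factor, was called, at 875 ± 8.5 on fractal against 621 ± 8.2 CPM on smooth (edgeR adjusted p = 6.01e-04), against 0.651% of all tested genes called higher. Without the 2 libraries that stand apart, 8 target genes were called higher and 2 lower among controls, 11 and 2 with cytokines, and the interaction with cytokines had 6 higher and 3 lower. Over all genes, that fit called 1188 among controls, 1561 with cytokines and 1461 in the interaction. With all 18 libraries these were 286, 719 and 436. The counts of target genes with THP-1 were then 18 lower and 5 higher on smooth and 17 lower and 3 higher on fractal. Over all genes 7385 and 8806 were called there, against 5655 and 8149 with all 18 libraries.

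**Figure D5:**
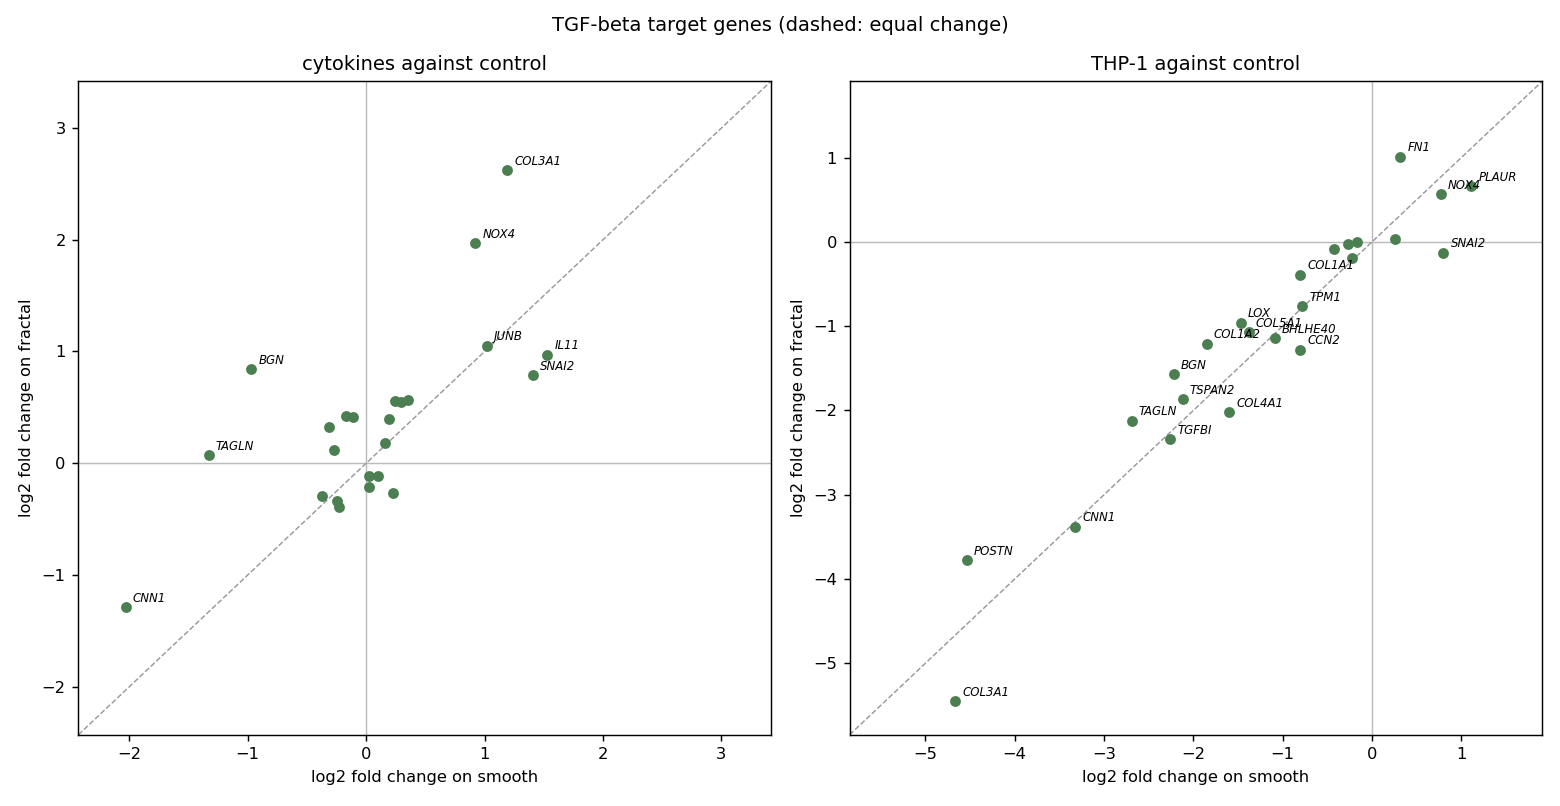
Log2 fold change against control on the smooth (x axis) and the fractal surface (y axis) for the TGF-beta target genes shown, with cytokines (left) and THP-1 (right); the dashed line marks equal change and genes past 0.7 in size on either axis are named. With THP-1 most points lie in the lower left, with FN1, PLAUR, NOX4 and JUNB above 0 on both axes. With cytokines BGN, COL3A1, TAGLN and NOX4 lie well above the line. The 2 axes of a panel use separate libraries.

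Some genes outside the list tracked the members with the widest range of group means. These were TGFB2 with a range of 2.41, LTBP1 with 2.26 and INHBA with 1.33 on the log2 scale. Over the 18 libraries and 10242 protein-coding genes, the closest to TGFB2 were CALU (Pearson r = 0.989), ANKRD50 (0.980) and TNIK (0.980). TNIK had group means of 61.3, 63.2, 47.6, 52, 26.4 and 30.4 CPM in the order smooth and fractal controls, cytokines and THP-1. LTBP1 was tracked by SLC7A5 (0.976), an amino acid transporter, NTN4 (0.974), the laminin-binding netrin 4, and TGFBI (0.972). SLC7A5 also stood highest with cytokines on fractal, at 986 CPM, and lowest with THP-1, at 112 and 80.8 CPM. INHBA was tracked by ADGRG1 (0.982), TMEM43 (0.980) and PLOD2 (0.970), an enzyme that hydroxylates collagen lysines. These coefficients describe 18 libraries that share groups and depth, and carry no test.

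On GRCh38 with GENCODE 29 gene bounds, TGFB1 (ENSG00000105329) lies at chr19:41301587-41353911 on the minus strand and TGFB2 (ENSG00000092969) at chr1:218346235-218444619 on the plus strand. LTBP1 (ENSG00000049323) lies at chr2:32946972-33399509, plus, and LTBP2 (ENSG00000119681) at chr14:74498170-74612378, minus. TGFBR1 (ENSG00000106799) lies at chr9:99104038-99154192, plus, and TGFBR2 (ENSG00000163513) at chr3:30606502-30694142, plus. INHBA (ENSG00000122641) lies at chr7:41667168-41705834, minus, SMAD7 (ENSG00000101665) at chr18:48919853-48952052, minus, and SKIL (ENSG00000136603) at chr3:170357678-170396835, plus. TGFB3 (ENSG00000119699) lies at chr14:75958099-75982991, minus. TGFB2 shares 1371 exon bases, 26.62% of its exon length, with TGFB2-OT1 on its own strand, which had 0 counts in the table, and the overlapping antisense genes of LTBP1, LTBP2 and TGFB3 had 7, 47 and 2 counts over all libraries.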

How the data were processed

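The values deposited by the authors are raw, whole-number counts of 58735 Ensembl genes in each of 18 libraries. The submitters' processing notes list GRCh38 (hg38), featureCounts 1.5.0-p3, HISAT2 2.0.5 and CASAVA; what each did and the annotation used are not given in the sources used here. Per the labels' protocols, poly-T selected RNA was sequenced from libraries that keep no strand, as paired reads of 150 bases. Symbols, bounds and exon lengths came from GENCODE 29, and promoters from RefSeq.

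Counts were scaled by TMM and tested with edgeR 4.0.16 (R 4.3.3). The filter was filterByExpr with a minimum count of 10 and a minimum total of 15, and 16129 genes passed. A model with 6 group means was fitted to all 18 libraries, with 12 residual degrees of freedom and a biological variation coefficient of 12.2%. The 9 comparisons were tested by quasi-likelihood with Benjamini-Hochberg adjustment within each. Standard errors were derived from the F statistic. The steps were tested on simulated counts. Levels per kilobase divide CPM by the union of a gene's exons. Labels shared replicate numbers without saying that they pair libraries, and a check found no sign of pairing. Alternatives used DESeq2 1.42.0, limma-voom (limma 3.58.1), RLE or upper-quartile factors, no filter, 1 CPM in 3 libraries, the replicate block, only the groups compared, and each library left out. Leaving out both fractal THP-1 replicate 3 and smooth cytokines replicate 2 was chosen after seeing the data. Fits to fewer libraries ran the filter anew, and their numbers of genes tested are not given here. Figures were drawn with matplotlib 3.10.9.

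The 10 members and all gene lists were chosen with earlier results of these data known. Named are the 10 members; from each pathway list, up to 3 genes in each direction and comparison by smallest adjusted p among those reaching 5 CPM in the higher group; for the 3 members with the widest range of group means, the 3 protein-coding genes of at least 5 CPM with the highest Pearson r on log2 CPM (prior count 2); and marker genes. Fewer are named in places. HNRNPUL1 was named after its values were seen. Results for some genes of the lists are not reported here.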

Additional observations from a re-analysis of the deposited data

Results flagged for a closer look

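In 3 results the response to a treatment differed between the surfaces by a test of the difference itself, the interaction in edgeR's quasi-likelihood fit. For TGFB1 with THP-1 macrophages the interaction was -0.53 on the log2 scale (edgeR adjusted p = 0.00543). For LTBP1 with cytokines it was 0.75 (0.0127), and for TGFBR1 with cytokines it was -0.50 (0.0191). TGFB1 ran from -0.60 to -0.47 over 21 alternatives and LTBP1 from 0.55 to 0.86, each past the threshold under every one, with highest adjusted p of 0.0177 and 0.0415. TGFBR1 ran from -0.59 to -0.45 and missed the threshold under 3, each leaving out 1 control library. Beyond the chi-square values and leaving out each library, groups of 3 libraries were not examined for single outlying values.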

How the results depend on the processing

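Of 90 member values 34 were called; 29 stayed called under every alternative run and 5 were lost under some, namely TGFB3 in both fractal treatment contrasts, TGFBR1 in the same contrasts and TGFBR1 in the interaction with cytokines. No called value changed sign, and 20 uncalled ones passed under some alternative. Where not stated, the cause was not tested.

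Replicate numbers showed no sign of pairing the libraries: of 45 same-numbered pairs 0 had deviations correlated over 0.1 (range -0.0672 to 0.0641), and 7 of 18 libraries correlated best with their own number. With 3 libraries a group, low correlations cannot exclude a shared culture or day. With the number as a block, TGFB3 with cytokines on fractal was lost (edgeR adjusted p = 0.0551) and TGFB1 with THP-1 on fractal passed (0.0329). In the order surface under control, cytokines and THP-1, cytokines on smooth and fractal, THP-1 on smooth and fractal, and both interactions, the block called 283, 694, 3114, 4063, 4075, 5565, 8059, 416 and 2086 genes, against 286, 719, 3220, 4144, 4167, 5655, 8149, 436 and 2134 without it.

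Between controls, 513 genes were called with DESeq2, 2755 with only the groups compared and 1188 without the 2 libraries that stand apart, and 7 members with only the groups compared and 3 without those 2 libraries. Between surfaces, 1561 genes were called with cytokines without those libraries, and 1412 with THP-1 with only the groups compared. For the interaction with cytokines the counts were 688 with DESeq2, 983 with only the groups compared and 1461 without the 2 libraries. For the interaction with THP-1, 3 members were called with DESeq2, upper-quartile factors, only the groups compared or without the 2 libraries, the last calling 3642 genes.

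Leaving out 1 library at a time gave 131 to 150 genes between controls, 271 to 532 and 1632 to 3266 for the interactions with cytokines and THP-1, the highest without fractal THP-1 replicate 3. Members called ran from 3 to 6 for THP-1 on fractal (3 without fractal THP-1 replicate 1) and from 1 to 2 for each interaction.

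Some uncalled values changed sign, with TGFB3 having the widest ranges. Between surfaces with cytokines, SKIL was 0.00 with upper-quartile factors, 0.06 without the 2 libraries and -0.11 to 0.06 with 1 library left out; TGFB3 was -0.18 and -0.17 to 0.93, SMAD7 -0.04 and -0.04 to 0.18, and TGFBR2 with 1 left out -0.06 to 0.03. With THP-1 between surfaces, LTBP2 was -0.00 without the 2 libraries; with 1 left out LTBP2 was -0.00 to 0.17, TGFB3 -0.09 to 0.44 and LTBP1 -0.15 to 0.02. With 1 left out, TGFB3 with cytokines on smooth was -0.06 to 1.08, the lowest without smooth cytokines replicate 3, and LTBP2 with cytokines on fractal -0.01 to 0.09. INHBA with THP-1 on fractal was 0.01 with DESeq2, RLE factors or 1 CPM in 3 libraries, 0.08 with upper-quartile factors and 0.00 without the 2 libraries, and -0.05 to 0.00 with 1 left out. In the interaction with cytokines, TGFB1 was 0.05 and TGFB2 -0.06 without the 2 libraries; with 1 left out TGFB1 was -0.13 to 0.05, TGFB2 -0.06 to 0.08, SMAD7 -0.15 to 0.06 and INHBA -0.08 to 0.01. In that with THP-1, LTBP2 was 0.01 with DESeq2 or RLE factors, 0.05 with upper-quartile factors, 0.00 with 1 CPM in 3 libraries and -0.13 to 0.05 with 1 left out; SMAD7 was -0.10 without the 2 libraries and -0.10 to 0.10 with 1 left out; and TGFB2 was -0.14 to 0.24 with 1 left out.

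TGFB3, at 10 to 52 counts a library, is the member whose precision depth limits most.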
